A study of Mus musculus with 39 samples.

Results

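The 9 genes Mbp, Mog, Mag, Mobp, Cnp, Opalin, Mal, Cldn11 and Ermn, which encode structural proteins of the central nervous system myelin sheath, were taken from the gene counts by their symbols. All 9 were found among the 50559 genes of each count table, and all 9 passed the filter on low counts in both tissues. Counts of bulk poly(A) RNA were used from 2 regions, the hippocampus and the basolateral amygdala (BLA), of 9-month-old females on a C57BL/6 background. APP/Tau mice were heterozygous for the transgenes of line J9 (APPSw,Ind) and of line PS19 (tau P301S), and control mice carried neither transgene. The comparison asks what amyloid and tau pathology change in each region, in naive mice and after fear learning. Every mouse of both genotypes also carried CaMKIIα-Cre, which is active in glutamatergic neurons of the postnatal forebrain, and RiboTag, a tagged ribosomal protein. The sequenced RNA is the "input" of the RiboTag procedure, taken from cleared lysate before any pull-down, so that RNA of all cell types is present, oligodendrocytes included. Naive mice had no training, and trained mice were killed 1 h after a tone that ended with a foot shock. The BLA held 5 naive and 5 trained controls with 5 naive and 4 trained APP/Tau mice, and the hippocampus 5 naive and 6 trained controls with 5 naive and 4 trained APP/Tau mice. BLA libraries were made from 10 ng of RNA of micropunches, and hippocampal libraries from 50 ng of microdissected tissue.

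Each BLA library held 50.3 to 74.3 M counts and each hippocampal library 92.1 to 128 M. The 9 genes together took 0.135 to 0.432% of the counts of a BLA library and 0.284 to 0.779% of a hippocampal library. The smallest count of any of the 9 genes in a library was 271, of Opalin in the BLA. In the BLA, 3 libraries had Ppp1r1b, a marker of striatal and central amygdala neurons, above 600 CPM (counts scaled to a common library total): APP/Tau naive 2 at 1162, Control trained 2 at 919 and APP/Tau trained 4 at 702. In the hippocampus, the libraries Control naive 1 and Control trained 1 had 18S ribosomal RNA (Rn18s-rs5) at 57155 and 20636 CPM, against at most 2902 in the others. Results that rest on these 5 libraries are given with and without them.

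Oligodendrocytes wrap axons in many turns of plasma membrane, and most of the cytoplasm is squeezed out to leave compact myelin. Mbp holds the cytoplasmic faces of the membrane together, and Mobp is a further basic protein of compact myelin. Mog lies on the outermost surface of the sheath and Mag on the innermost, where it faces the axon. Cnp, an enzyme bound to membrane and cytoskeleton, keeps cytoplasmic channels open in the sheath. Cldn11 forms the tight junctions between turns, Mal is a lipid raft protein of membrane traffic, Ermn binds actin in late maturation, and Opalin is a glycoprotein of mature oligodendrocytes. Transcription of these genes depends on SOX10, a factor of the whole lineage, and on MYRF, which is switched on as oligodendrocytes mature. In the brain the sheath is concentrated in white matter tracts.

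The 250 bases before the RefSeq transcription start (build GRCm38.p6) are shown for the 3 genes in which a match to a SOX10 core occurred with others or with a MYRF motif, since those 2 factors act on this gene group. Capitals mark ACAAAG, the SOX core, or its reverse CTTTGT, and CTGGCAC, the MYRF motif, searched on both strands; no match overlapped another. The stretches are chr9:120149492-120149741 on the plus strand for Mobp, chr11:100574689-100574938 on the plus strand for Cnp and chr7:30914864-30915113 on the minus strand for Mag, each written 5′ to 3′.
Mobp: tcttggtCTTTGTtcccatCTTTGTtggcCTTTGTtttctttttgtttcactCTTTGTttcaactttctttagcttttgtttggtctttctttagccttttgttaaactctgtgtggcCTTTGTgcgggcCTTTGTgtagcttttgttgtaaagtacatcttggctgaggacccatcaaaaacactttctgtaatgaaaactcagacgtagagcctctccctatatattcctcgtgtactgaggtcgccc
Cnp: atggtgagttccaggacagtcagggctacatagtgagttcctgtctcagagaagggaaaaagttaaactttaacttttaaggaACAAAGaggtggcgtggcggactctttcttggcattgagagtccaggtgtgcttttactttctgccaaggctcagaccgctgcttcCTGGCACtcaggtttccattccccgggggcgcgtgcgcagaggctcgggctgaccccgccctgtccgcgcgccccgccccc
Mag: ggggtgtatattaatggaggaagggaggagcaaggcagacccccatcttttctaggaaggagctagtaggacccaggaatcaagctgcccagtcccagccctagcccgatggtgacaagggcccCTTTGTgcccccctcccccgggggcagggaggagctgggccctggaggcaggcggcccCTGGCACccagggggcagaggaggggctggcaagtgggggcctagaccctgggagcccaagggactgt
The Mobp stretch holds 6 copies of the SOX core, all as CTTTGT, starting between 243 and 120 bases before the start, and 1.68% of 27025 such stretches of mouse genes hold 2 or more. Cnp and Mag hold 1 SOX core and 1 MYRF motif each, at 167 and 81 bases before the start in Cnp and at 126 and 68 bases in Mag. A SOX core occurs in 16.5% of all stretches, a MYRF motif in 4.14% and both together in 0.688%. The Opalin stretch has 1 SOX core and no MYRF motif, and the Ermn stretch has 1 copy of the second SOX form, ACAATG, which 11% of stretches hold. Neither core form nor the MYRF motif was found in the Mog, Mal or Cldn11 stretches; Mbp has no entry in the table. For Mag the table lists 3 starts, and the first was used.

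Levels are CPM with normalization factors computed within each tissue (TMM, trimmed mean of M values). Per kilobase of exon (exon lengths from GENCODE M21), Mbp was the most abundant of the 9 in both tissues, at 148 ± 49.3 CPM per kb in the BLA (SD, n = 19) and 272 ± 73.3 in the hippocampus (SD, n = 20). Mobp was next, at 61.7 ± 25 in the BLA and 125 ± 31.4 in the hippocampus. Cnp at 57.3 ± 18.4, Mal at 48.1 ± 18.7 and Cldn11 at 42.2 ± 16.5 followed in the BLA, with ranges that overlapped each other and that of Mobp. In the hippocampus Mal at 91.7 ± 25.3, Cnp at 91.5 ± 24.8 and Cldn11 at 83.6 ± 30.9 were likewise not separated beyond their spread. Mag, Mog and Ermn came next in both tissues, at 25.5, 17.1 and 12.6 CPM per kb in the BLA and 49.1, 35.4 and 31.8 in the hippocampus. Opalin was lowest, at 3.75 ± 1.52 CPM per kb in the BLA and 9.41 ± 3.35 in the hippocampus. The order from Cldn11 down was the same in both tissues, and Mog and Ermn were close to each other in the hippocampus. Some counts can hold reads of an overlapping gene, because the strand setting of the counting is not given: Mobp overlaps Gm38642 on the same strand, and Cnp, Ermn, Mog and Mbp overlap Dnajc7, Galnt5, Gm22388 and Rpl21-ps8 on the opposite strand.

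**Figure D1:**
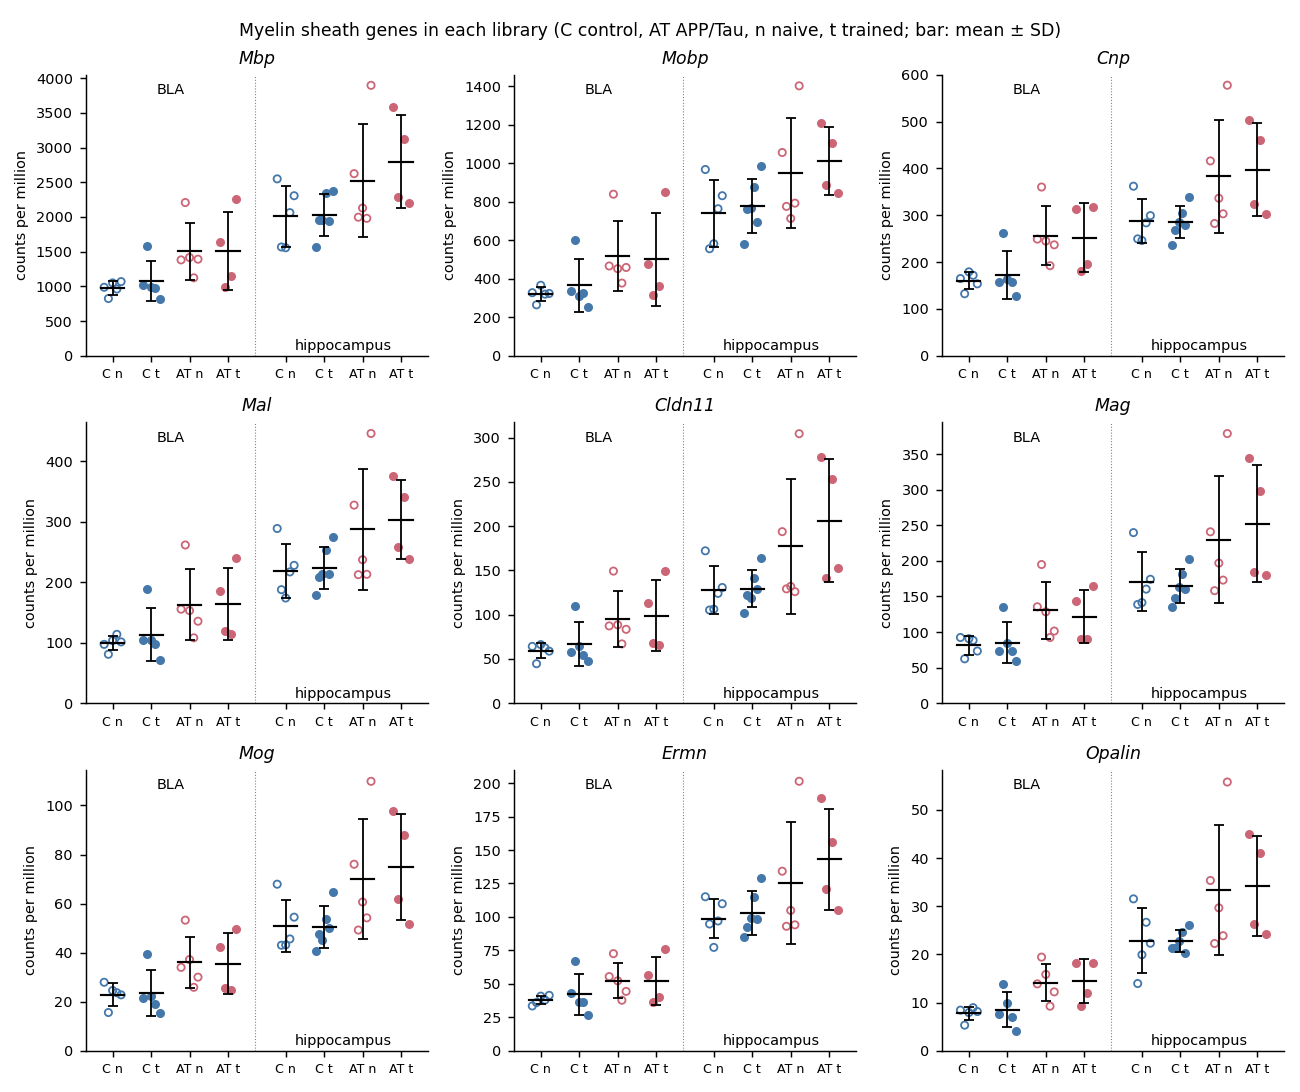
Level of each of the 9 genes (vertical axis, CPM, starting at 0) in every library of the 8 groups, with group mean and SD as bars; open points are naive and filled points trained mice, blue control and red APP/Tau. In each panel the hippocampal group means lie above the BLA group means, and 1 BLA library of the trained controls lies above the other 4.

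The largest difference among these genes was between regions. All 9 were lower in the BLA than in the hippocampus, averaged over the 4 groups, from Cnp at a log2 fold change of -0.68 (SE 0.10) to Ermn at -1.33 (SE 0.11) and Opalin at -1.35 (SE 0.13). Every one passed the edgeR quasi-likelihood test, the weakest being Cnp with an adjusted p of 2.23e-07. Over all 26725 genes of that fit, 34.5% were called lower in the BLA and 30.0% higher (64.5% in either direction), and the median log2 fold change was -0.05 against -0.99 for the 9 genes. In naive controls the differences ran from -0.82 (SE 0.20, Cnp) to -1.54 (SE 0.27, Opalin), with all 9 called, where 20.7% of all genes were called lower and 41.1% in either direction. Mbp, for example, was at 986, 824, 1049, 961 and 1068 CPM in the naive BLA controls and at 2549, 1566, 1555, 2062 and 2306 CPM in the naive hippocampal controls, so that the groups did not overlap. With a common normalization of the 39 libraries, the naive controls of the regions were separated without overlap for all 9 genes, as for 16.5% of all genes with the hippocampus higher. Over all 39 libraries none of the 9 was separated without overlap, as 3.45% of all genes were. Region goes with dissection method, RNA input and depth, which cannot be told apart from it. In bulk samples, fewer oligodendrocytes and less of each RNA per cell cannot be told apart either.

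The 95% intervals of Opalin and Ermn did not overlap that of Cnp, at -1.61 to -1.09 for Opalin, -1.55 to -1.11 for Ermn and -0.88 to -0.49 for Cnp. Among other genes of mature oligodendrocytes, 27 of 27 were called lower in the BLA, with a median of -0.86 and a range of -1.88 to -0.21, and so were 6 of 6 enzymes of myelin glycolipid synthesis, with a median of -0.75. Genes of precursors and newly formed oligodendrocytes moved otherwise: 7 of 12 were called higher in the BLA and 3 lower, with a median of 0.27. The 8 striatal and central amygdala markers were all called higher in the BLA, with a median of 3.41. Without the 5 libraries named above the 9 genes were still all called lower in the BLA, with a median of -1.16.

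**Figure D2:**
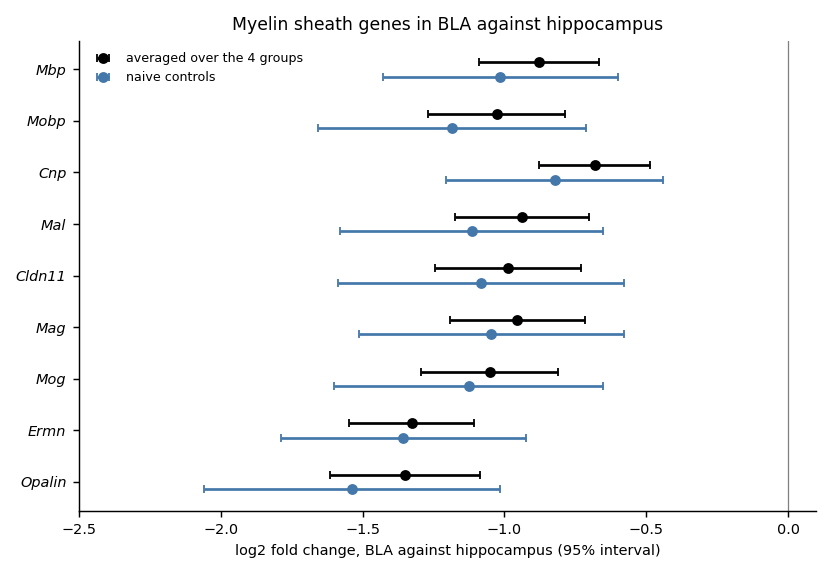
Log2 fold change of each of the 9 genes in the BLA against the hippocampus (horizontal axis) with its 95% interval, 1.96 SE to each side, averaged over the 4 groups (black) and in naive controls (blue). All intervals lie below 0, with Opalin and Ermn farthest from 0 and Cnp nearest in the average.

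In the hippocampus, APP/Tau mice had higher levels of myelin sheath genes than controls. Averaged over naive and trained mice, 5 of the 9 genes rose past the threshold of an adjusted p of 0.05: Cnp, Mog, Mag, Opalin and Cldn11. In the same comparison 7.27% of all 25791 genes were called higher and 3.80% lower (11.1% in either direction). The 4 others had log2 fold changes of 0.40 for Mbp, 0.37 for Mobp, 0.42 for Mal and 0.41 for Ermn, with adjusted p of 0.059, 0.0735, 0.0517 and 0.057. The median of the 9 was 0.45, against -0.0013 for all genes, and all 9 had an unadjusted p below 0.05, as did 7344 of the 25791 genes.

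Cldn11, the tight junction protein, was at 172, 105, 106, 124 and 131 CPM in naive controls and between 102 and 164 CPM with a median of 126 in trained controls. Naive APP/Tau mice had 194, 129, 132, 126 and 304 CPM, and trained APP/Tau mice 278, 141, 253 and 152 CPM. Of the 9 APP/Tau libraries 4 were above every control and the other 5 within the control range, so the genotypes overlapped. The averaged log2 fold change of Cldn11 was 0.57 (SE 0.17, adjusted p 0.0328 by edgeR).

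Opalin, the glycoprotein of mature oligodendrocytes, had 31.5, 14, 19.9, 26.7 and 22.3 CPM in naive and 20.4 to 26.1 CPM with a median of 22.1 in trained controls. It had 35.3, 22.3, 29.7, 23.9 and 55.8 CPM in naive and 45.1, 26.3, 41.0 and 24.3 CPM in trained APP/Tau mice. The log2 fold change of Opalin was 0.57 (SE 0.16, adjusted p 0.034 by edgeR), with 8 of 9 APP/Tau libraries above the control median.

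Cnp, the membrane-bound enzyme, had 362, 249.5, 246, 284 and 299 CPM in naive and 236 to 338 CPM with a median of 282 in trained controls. It had 416, 282, 336, 303 and 578 CPM in naive and 503, 324, 459.7 and 302 CPM in trained APP/Tau mice, a log2 fold change of 0.45 (SE 0.12, adjusted p 0.0282 by edgeR). Mog, the surface glycoprotein, ranged from 40.5 to 67.9 CPM in controls (median 47.7) and from 49.2 to 109.9 CPM in APP/Tau mice (median 61.9), with a log2 fold change of 0.52 (SE 0.15, adjusted p 0.0291). Mag, its counterpart facing the axon, ranged from 135 to 239.7 CPM in controls (median 161) and from 158 to 379 CPM in APP/Tau mice (median 197), with 0.52 (SE 0.16, adjusted p 0.0392). For every one of the 9 genes the same picture held: 4 of 9 APP/Tau libraries lay above the highest of 11 controls and none below the lowest. The genotypes were separated without overlap for 0 of the 9, and for 0.403% of all genes with APP/Tau higher.

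Mbp, the most abundant of them, shows how the mice were spread. It was at 2549, 1566, 1555, 2062 and 2306 CPM in naive and 1565 to 2373 CPM (median 1954) in trained controls. It reached 2624, 1996, 2128, 1980.0 and 3897 CPM in naive and 3581, 2293, 3123 and 2196 CPM in trained APP/Tau mice. The 3 highest libraries were APP/Tau naive 5, trained 1 and trained 3, and the same 3 were the highest APP/Tau libraries for all 9 genes. Leaving out single libraries bore on the count of called genes: without APP/Tau trained 1, APP/Tau trained 3, Control naive 2 or Control naive 3 it was 0, without APP/Tau naive 5 it was 1, and over all 20 such fits it ran from 0 to 8. The share of all genes called in either direction moved as well, to 4.46, 4.52, 8.24, 7.75 and 6.96% without those 5 libraries in turn, and to 13.1 to 16.9% in the 4 fits that called 8. In those 20 fits all 9 genes kept an unadjusted p below 0.05, and the median log2 fold change stayed between 0.35 and 0.51. Without the 2 libraries high in 18S ribosomal RNA 5 genes were called, with a median of 0.47, where 7.06% of all genes were called. DESeq2 called all 9, with 16.8% of all genes fitted, and limma-voom 4, with 10.4%.

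Naive and trained mice taken apart gave differences of like size that did not pass the test. In naive mice the 9 log2 fold changes ran from 0.33 to 0.55 (adjusted p 0.266 to 0.417, with 3 of 9 unadjusted p below 0.05), where 0.109% of all genes were called higher and 0.0931% lower (0.202% in either direction). In trained mice they ran from 0.38 to 0.67 (adjusted p 0.126 to 0.262, with 8 of 9 unadjusted p below 0.05), where 2.65% of all genes were called higher and 0.143% lower (2.80% in either direction). The genotype by training interaction called 0 of 9 genes by edgeR, with differences of 0.02 to 0.20, and 0% of all genes.

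In the BLA, 2 of the 9 genes rose in APP/Tau mice averaged over naive and trained mice, against 0.997% of all 23168 genes called higher and 0.181% lower (1.18% in either direction). The genotypes were separated without overlap for 0 of the 9, and for 0.0388% of all genes with APP/Tau higher. Opalin had 8.43, 5.31, 7.94, 8.95 and 8.14 CPM in naive and 7.54, 13.9, 9.88, 7.03 and 4.20 CPM in trained controls. It had 13.9, 19.4, 15.8, 9.25 and 12.2 CPM in naive and 18.3, 9.27, 12.0 and 18.2 CPM in trained APP/Tau mice. Control trained 2 was the only control above 10 CPM, and APP/Tau naive 4 and APP/Tau trained 2 lay below that level. For Opalin the log2 fold change was 0.81 (SE 0.19, adjusted p 0.0438 by edgeR).

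Cnp, the other called gene of the BLA, had 165, 132, 179, 172 and 153 CPM in naive and 157, 261, 164, 157 and 127 CPM in trained controls. It had 249, 360.3, 245, 192 and 237 CPM in naive and 314, 181, 195 and 319 CPM in trained APP/Tau mice. Of 10 control libraries 9 lay below the lowest APP/Tau library, and the exception was Control trained 2. The log2 fold change of Cnp was 0.61 (SE 0.14, adjusted p 0.0412 by edgeR). The 7 others had log2 fold changes from 0.39 for Ermn to 0.63 for Cldn11, with adjusted p of 0.0699 for Mbp to 0.19 for Ermn. All 9 had an unadjusted p below 0.05, as did 4399 of all genes, and the median was 0.61 against 0.01 for all genes.

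Mbp in the BLA had 986, 824, 1049, 961 and 1068 CPM in naive controls and 1019, 1575, 987, 979.6 and 815 CPM in trained controls. It had 1381, 2207, 1415, 1122 and 1391 CPM in naive APP/Tau mice and 1644, 995, 1154 and 2253 CPM in trained APP/Tau mice. Of the 4 highest values, 3 belong to the libraries with high Ppp1r1b and the other to APP/Tau trained 1. Without the 3 libraries with high Ppp1r1b 8 of the 9 genes were called, with log2 fold changes of 0.32 to 0.80 and a median of 0.52, where 1.6% of all genes were called in either direction. With the striatal markers as a covariate edgeR called none, and 0.164% of all genes, while the median was 0.35 and 8 of 9 had an unadjusted p below 0.05. The striatal markers themselves, with a median log2 fold change of 0.65 between genotypes, were called in 0 of 8 cases. Leaving out single libraries gave 9 called genes without Control trained 2, 8 without APP/Tau trained 2, 3 without APP/Tau naive 4 and 0 in the other 16 fits, with the median between 0.50 and 0.71. The share of all genes called was 5.47% without Control trained 2, 9.21% without APP/Tau trained 2 and 1.74% without APP/Tau naive 4, and at most 1.07% in the 16 fits. DESeq2 called 7, with 5.14% of all genes fitted, and limma-voom 0, with 0.276%.

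In naive mice of the BLA the log2 fold changes ran from 0.47 to 0.87 (adjusted p 0.261 to 0.371, with 9 of 9 unadjusted p below 0.05), where 0.0129% of all genes were called higher and 0.0259% lower (0.0388% in either direction). In trained mice they ran from 0.32 to 0.76 (adjusted p 0.337 to 0.662, with 6 of 9 unadjusted p below 0.05), where 0.0173% of all genes were called higher and 0.0259% lower (0.0432% in either direction). The interaction called 0 of 9 genes and 0% of all genes, with differences from -0.24 to -0.07. A test over both tissues of whether the averaged genotype difference was larger in the BLA called 0 of 9 genes, with 0 unadjusted p below 0.05, and 0.00748% of all genes higher and 0.0187% lower (0.0262% in either direction). The 9 differences in that test ran from -0.03 for Ermn to 0.24 for Opalin, and their widest interval, that of Opalin, reached from -0.28 to 0.75.

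**Figure D3:**
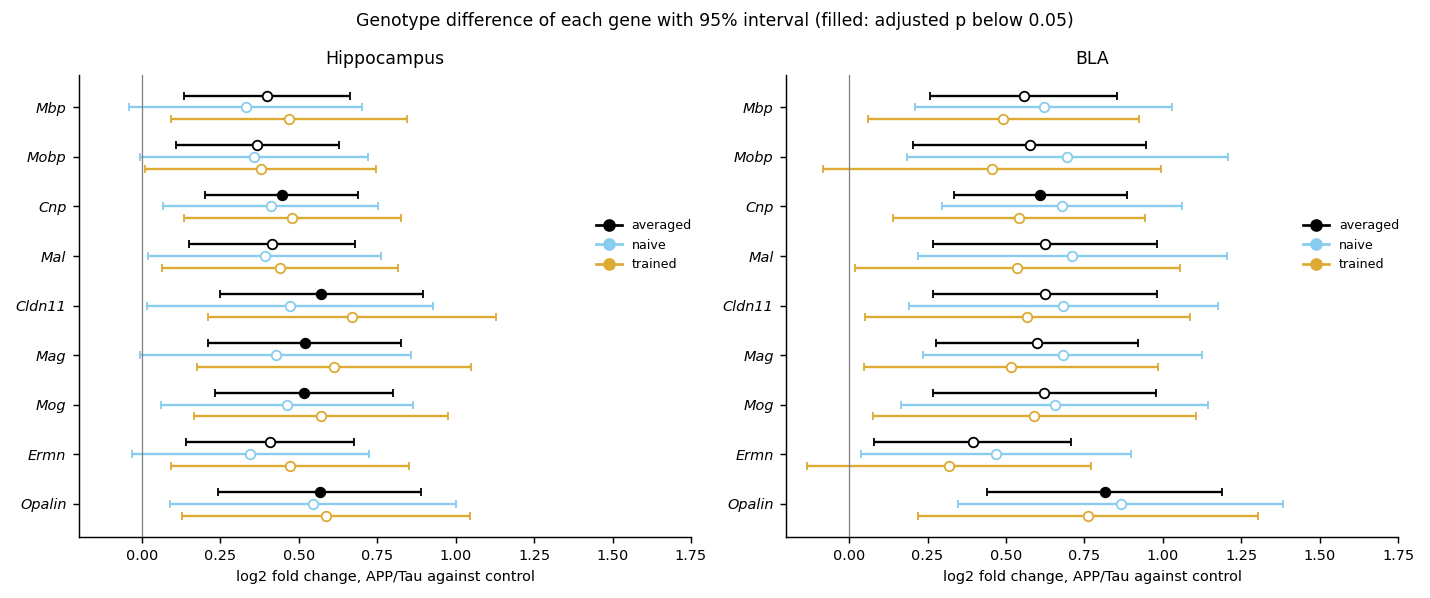
Log2 fold change of each of the 9 genes in APP/Tau against control mice (horizontal axis) with 95% intervals of 1.96 SE, in the hippocampus and the BLA, averaged (black), in naive mice (blue) and in trained mice (yellow). Filled points passed an adjusted p of 0.05: Cnp, Cldn11, Mag, Mog and Opalin in the hippocampus and Cnp and Opalin in the BLA, all in the average. The intervals are approximate and narrower than the F test implies. That of Mobp in trained mice of the hippocampus was 0.01 to 0.75, with an unadjusted p of 0.058 by edgeR.

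No training effect on these genes passed the test. At 1 h after the shock, the log2 fold changes in controls ran from 0.04 to 0.19 in the BLA, and those of the hippocampus from -0.05 to 0.07. In APP/Tau mice they ran from -0.10 to 0.06 in the BLA, and those of the hippocampus from 0.03 to 0.22. edgeR called 0 of 9 genes in each of the 4 comparisons, with 0 of 9 unadjusted p below 0.05, and called 0% of all genes. The intervals were wide: for Mbp they reached from -0.27 to 0.55 in BLA controls and from -0.34 to 0.37 in hippocampal controls, so shifts of that size were not detectable. Without the 3 BLA libraries with high Ppp1r1b the values in BLA controls ran from -0.23 to -0.05, and without the 2 hippocampal libraries high in 18S ribosomal RNA those in hippocampal controls ran from 0.13 to 0.26, again with 0 of 9 called.

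Within groups, the 9 genes rose and fell together from mouse to mouse. After the group means were subtracted from log2 CPM (prior count 2), all 36 pairs of the 9 genes were correlated in each tissue. Pearson's r ran from 0.81 (Mobp with Opalin) to 0.98 (Mbp with Mobp) with a median of 0.94 over the 19 BLA libraries, and Spearman's rho from 0.80 to 0.98. Over the 20 hippocampal libraries r ran from 0.85 (Opalin with Ermn) to 0.99 (Mag with Cnp) with a median of 0.95, and rho from 0.83 to 0.99. With 100000 permutations of libraries within groups and Benjamini-Hochberg adjustment over the 36 pairs, the largest adjusted p was 0.00044 in the BLA and 0.00017 in the hippocampus. Without the 2 libraries farthest from the median of the first gene of a pair, r in the BLA was 0.76 to 0.97 and r in the hippocampus 0.78 to 0.99. All 36 pairs also held without the 3 libraries with high Ppp1r1b (median r 0.88) and without the 2 high in 18S ribosomal RNA (median r 0.96).

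A single component held 94.0% of the within-group variance of the 9 scaled genes in the BLA and 95% in the hippocampus. In 12 of 19 BLA libraries all 9 genes lay on the same side of their group mean, above it in 5 and below it in 7. In the hippocampus this was so in 17 of 20 libraries, above in 8 and below in 9. The mean of the 9 genes stood 0.75 above its group mean (log2) in BLA Control trained 2, 0.62 above in BLA APP/Tau naive 2 and 0.53 below in BLA Control trained 5. The extremes of the hippocampus were 0.73 above in APP/Tau naive 5 and 0.38 below in APP/Tau naive 2.

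The genes did not all move by the same amount. Against the mean of the other 8, Cnp had a slope of 0.81 and Mbp of 0.86 in the BLA, while Mal and Cldn11 had 1.09. In the hippocampus Cnp had a slope of 0.86 and Mobp of 0.87, Mag had 1.11 and Cldn11 1.17. Opalin followed the others least closely, with r of 0.90 with the mean of the other 8 in the BLA and 0.91 in the hippocampus. The SD that the mean of the other 8 left in Opalin was 0.21 log2 units in the BLA and 0.17 in the hippocampus, against 0.07 and 0.04 for Cnp. Opalin also has the lowest counts of the 9. The SD within groups before that subtraction was 0.34 to 0.47 for BLA libraries and 0.30 to 0.40 for hippocampal ones, and the median over all genes was 0.28 and 0.27.

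**Figure D4:**
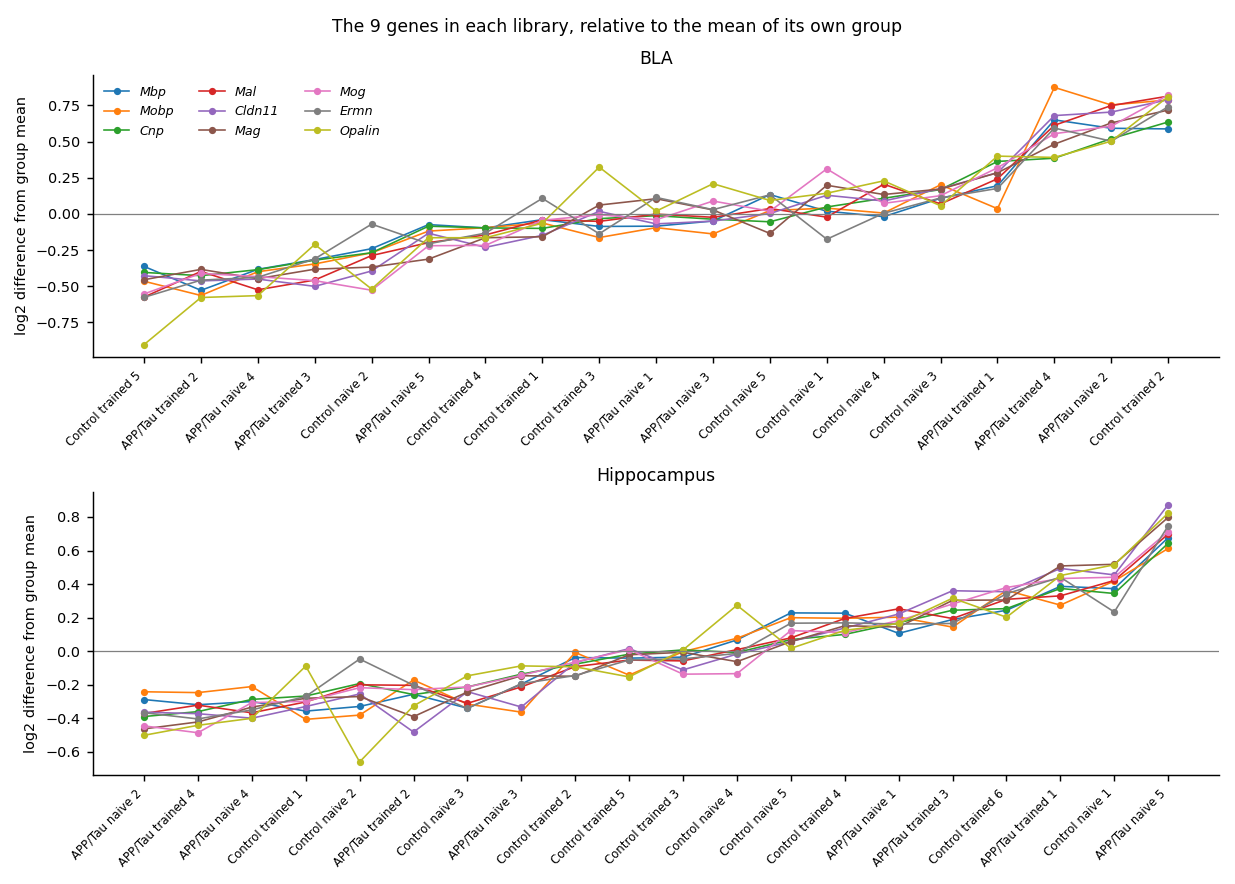
Difference of each of the 9 genes from the mean of its own group (vertical axis, log2 CPM) in every library, with libraries ordered by the mean of the 9 genes; each coloured line joins the values of 1 gene. The lines run close together in both tissues, with Opalin straying most, as in BLA Control trained 5 and hippocampal Control naive 2.

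Outside the 9, the genes most like their mean were chosen by the smaller of the r values of the tissues, among 13766 genes with a mean of at least 1 CPM in each. Among the 6 most alike were Tmem88b (r 0.99 in the BLA and 0.97 in the hippocampus), Tspan2 (0.96 and 0.99), Tmem63a (0.95 and 0.97), Septin4 (0.95 and 0.98) and Gpr37 (0.97 and 0.95). An r above 0.9 was found for 0.212% of all other genes in the BLA and 0.481% in the hippocampus, and the median r of all genes was 0.01 and -0.02. An r above 0.5 was found for 12.5% of all other genes in the BLA and 13.3% in the hippocampus. An r below -0.5 was found for 13.9% and 14.8%. Of the 27 other genes of mature oligodendrocytes, 26 had an r above 0.5 in each tissue. The exceptions, named here after their values were seen, were Nfasc in the BLA (-0.34), which neurons also express, and Enpp2 in the hippocampus (0.24), which the choroid plexus also expresses. All 6 glycolipid enzymes had an r above 0.5 in each tissue. Of the 11 lineage transcription factors this was so for 7 in the BLA and 9 in the hippocampus, with medians of 0.62 and 0.75. They ran from Zfp536 (-0.10) to Myrf (0.89) in the BLA and from St18 (-0.55) to Myrf (0.97) in the hippocampus, with Sox10 at 0.72 and 0.97. Of the 12 genes of precursors and newly formed oligodendrocytes, 5 in the BLA and 7 in the hippocampus had an r above 0.5, with medians of 0.17 and 0.54. That list ran from Tnr (-0.83 and -0.71) to Bcas1 (0.92 and 0.97), with Pdgfra, the receptor that marks precursors, at 0.04 and 0.01.

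Genes of other cell types varied with the mean of the 9 too, more of them in the hippocampus. There 7 of 9 astrocyte genes (median r 0.73) and 5 of 8 microglial genes (median 0.67) had an r above 0.5. Of 10 neuronal genes in the hippocampus, 7 were below -0.5 and 2 above 0.5, with a median of -0.61, from Camk2a (-0.81) to Gad2 (0.63). In the BLA 0 of 9 astrocyte genes and 0 of 8 microglial genes had an r above 0.5, with medians of 0.14 and 0.27. Over all other genes, 12.5% in the BLA and 13.3% in the hippocampus had an r above 0.5, and 13.9% and 14.8% one below -0.5. All these r are descriptions over libraries, and the quantities share each library's depth scaling.

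Other oligodendrocyte genes were compared between genotypes by their place in the lineage. Over all genes, 7.27% were called higher and 3.80% lower in the hippocampus, and 0.997% higher and 0.181% lower in the BLA. In the hippocampus 11 of 27 other genes of mature oligodendrocytes were called higher and none lower, with a median log2 fold change of 0.40. The smallest p were those of the proteolipid Pllp (0.59, SE 0.14, adjusted p 0.0122), the protease Klk6 (1.18, SE 0.28, adjusted p 0.0133) and the lipid carrier Apod (0.84, SE 0.21, adjusted p 0.0155). Of 6 glycolipid enzymes 2 were called higher, Cers2 (0.41) and Elovl7 (0.42). Of 11 lineage transcription factors 1 was called, Nkx6-2 (0.55, adjusted p 0.0278), while Myrf had 0.42 with an adjusted p of 0.0572. A count of 1 of 11 is near the share over all genes. Among 12 genes of precursors and newly formed oligodendrocytes, Enpp6 (0.61) and Lhfpl3 (0.20) were called higher and Tnr (-0.21) lower, with a median of 0.13. In the BLA 4 of 27 mature genes were called higher, among them Pllp (0.67, adjusted p 0.0198), Cryab (0.67) and Ndrg1 (0.59), with a median of 0.47. None of the glycolipid enzymes, transcription factors or precursor genes was called in the BLA by edgeR, with medians of 0.37, 0.27 and 0.05 and unadjusted p below 0.05 for 5 of 6, 8 of 11 and 2 of 12. The unadjusted share of precursor genes, 2 of 12, was no higher than the share over all BLA genes given above. These lists were tested with edgeR only.

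Schwann cells share Mbp and Mag with oligodendrocytes. Pmp2, a fatty acid binding protein of peripheral myelin, was at most at 0.0943 CPM in any BLA library and 0.362 CPM in any hippocampal library. Of 4 tested genes of the Schwann cell list in the hippocampus, 1 was called, Pmp22 (0.58), which other cells express too. In that comparison 7.27% of all genes were called higher.

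Markers of other cell types moved with genotype as well. The shares over all genes were 7.27% called higher and 3.80% lower in the hippocampus, and 0.997% and 0.181% in the BLA. In the hippocampus 7 of 9 astrocyte genes and 7 of 8 microglial genes were called higher, with medians of 0.34 and 1.03, led by Gfap, the filament protein of reactive astrocytes (2.48, SE 0.31), and by the microglial genes Cst7 (5.46) and Trem2 (1.85). In the BLA 2 of 9 astrocyte genes, Gfap (3.12, SE 0.54) and Aldoc (0.34), and 6 of 8 microglial genes were called higher, and the neurofilament genes Nefm (-0.52) and Nefl (-0.50) were called lower among 10 neuronal genes. With the mean of other oligodendrocyte genes as a covariate, the genotype difference of the 9 genes had a median of 0.04 in the hippocampus and 0.00 in the BLA, and edgeR called 0 of 9 in each. The part of these other cells in the result was not tested.

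Gfap in the hippocampus fell into separate sets within the APP/Tau mice. The libraries APP/Tau naive 5, trained 1 and trained 3 had 4882, 4521 and 3722 CPM, and the other 6 had 672 to 1795 CPM, while the 11 controls had 315 to 497 CPM. The same 3 libraries were the 3 highest APP/Tau libraries for all 9 myelin sheath genes. The planned correlation over all 9 APP/Tau libraries, after subtraction of group means, gave r of 0.81 to 0.93 and rho of 0.68 to 0.88. It called 0 of 9 genes (adjusted permutation p of r 0.05 to 0.0806). Because of the split, such an r cannot tell a graded relation from a contrast of 3 libraries with the other 6. Among the other 6 APP/Tau libraries r with Gfap, after subtraction of group means, ran from -0.08 for Mog to 0.55 for Cldn11, with rho from -0.31 to 0.43. The exact permutation p (48 permutations) ran from 0.0833 to 0.896, with the smallest adjusted p over the 9 genes at 0.75. In the 11 hippocampal controls r ran from -0.26 to -0.0020 and rho from -0.16 to 0.03, and without the 2 libraries farthest from the median r was -0.47 to -0.13. The permutation p adjusted over 36 relations with Gfap was 0.995 for each of the 9. With 6 and 11 libraries, only a strong relation could have been detected.

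In the BLA, the libraries carrying the same library numbers in the labels as those 3 were again the highest in Gfap, at 671 CPM (APP/Tau naive 5), 1814 CPM (trained 1) and 1126 CPM (trained 3), against at most 284 CPM in the other 6. The 9 genes differed in direction there: in APP/Tau naive 5 and trained 3 all 9 lay below their group mean, and in trained 1 all 9 lay above it. Over all 9 APP/Tau libraries of the BLA, r with Gfap ran from 0.03 to 0.25 and rho from 0.05 to 0.35, with adjusted permutation p of 0.995. In the 10 BLA controls r with Gfap ran from -0.02 to 0.40 and rho from -0.22 to 0.49, with adjusted permutation p of 0.995, and without the 2 libraries farthest from the median r was -0.57 to -0.10.

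The 9 genes were correlated with markers of striatal tissue in the BLA. The mean of 8 markers of striatum and central amygdala (among them Ppp1r1b, Drd1, Drd2, Adora2a and Penk), taken after subtraction of group means, was related to every one of the 9 genes over the 19 BLA libraries. Pearson's r ran from 0.69 for Opalin to 0.87 for Ermn with a median of 0.81, and rho from 0.63 to 0.80. The adjusted permutation p over the 18 relations of both tissues ran from 0.00108 to 0.0158 for r and from 0.0066 to 0.0298 for rho. Without the 2 libraries farthest from the median of the marker mean, r was 0.52 to 0.77. Without the 3 libraries with Ppp1r1b above 600 CPM, r was 0.32 to 0.69 (median 0.54) and rho 0.26 to 0.70 over the other 16. There the unadjusted permutation p ran from 0.00913 to 0.287, and 0 of 9 genes had an adjusted permutation p below 0.05 (0.0822 to 0.287). The calls were thus lost without those 3 libraries, while r stayed above 0 for all 9 genes. With fewer libraries, the test cannot tell whether the relation rests on those 3. In the hippocampus the same markers gave r of -0.20 to 0.10 and rho of -0.18 to 0.19 over 20 libraries (adjusted permutation p 0.945 to 0.992).

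Neuronal genes of the BLA went both ways with the mean of the 9 genes over the 19 libraries: 3 of 10 had an r above 0.5 and 3 below -0.5, with a median of -0.27. Over all other genes of the BLA, 12.5% had an r above 0.5 and 13.9% one below -0.5. The ends of the neuronal list were Gad1 and Slc17a7. Gad1, the enzyme of GABA synthesis, had an r of 0.92 and Slc17a7, the vesicular glutamate transporter of cortical and basolateral neurons, -0.89. Slc17a7 was at 392, 377 and 627 CPM in the libraries APP/Tau naive 2, Control trained 2 and APP/Tau trained 4, the 3 with high Ppp1r1b, and between 604 and 2157 CPM in the other 16. In the hippocampus Gad1 had an r of 0.52 and Slc17a7 -0.74. The part of tissue composition in the result was not tested.

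**Figure D5:**
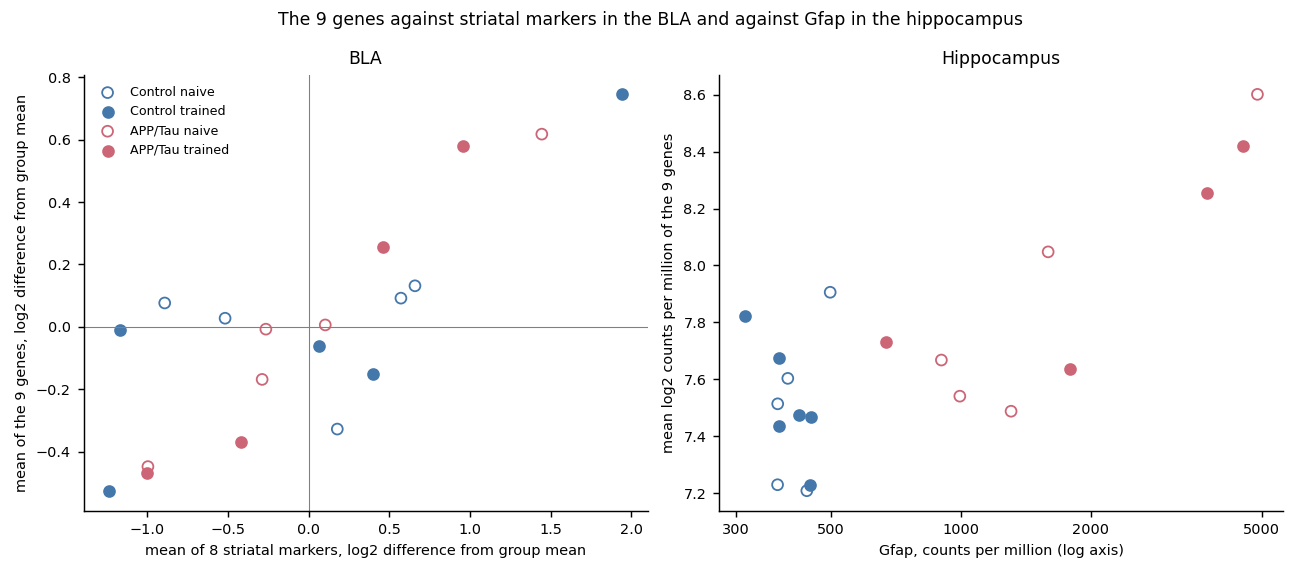
Left: mean of the 9 genes against the mean of 8 striatal markers in the 19 BLA libraries, both as log2 difference from the group mean. Right: mean log2 CPM of the 9 genes against Gfap (CPM, log axis) in the 20 hippocampal libraries; open points are naive and filled points trained mice, blue control and red APP/Tau. In the BLA panel 3 libraries lie at the upper right, and in the hippocampal panel 3 APP/Tau libraries have both the highest Gfap and the highest mean.

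No relation between the regions was found for the deviations of the 9 genes. Each of 19 library numbers occurs in both tissues within the same group, and may mark the same mouse, although the labels do not say so. Over these 19 pairs r between the BLA and the hippocampus ran from -0.25 to 0.16, with a median of -0.08, and rho from -0.21 to 0.11. None of the 9 relations had an adjusted permutation p below 0.05 (all 0.846), and without the 2 BLA libraries farthest from the median r was -0.10 to 0.27. The library highest in the 9 genes among BLA APP/Tau naive mice (replicate 2) was the lowest by their mean among the hippocampal ones.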

How the data were processed

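Gene counts of 19 BLA and 20 hippocampal libraries were used as the authors deposited them, as raw whole-number counts per gene symbol, without normalization. Per the submitters' processing notes, reads were trimmed with Trimmomatic 0.39 and the genome build was mm39; how reads were aligned and counted, on which annotation and strand, is not given in the sources used here. Groups were taken from the labels. For each tissue, 4 group means were fitted over all its libraries, and a further fit held both tissues, in R 4.3.3 with edgeR 4.0.16 (filterByExpr with minimum count 10 and minimum total count 15, TMM, quasi-likelihood F test, 2-sided, Benjamini-Hochberg adjustment over all genes tested, threshold 0.05). The averaged genotype difference weights naive and trained mice equally. The fit over both tissues treats libraries as independent. On simulated counts the procedure recovered most of 200 changed genes, whose changes were larger than the genotype differences of the 9 genes. The power for smaller changes was not tested. Correlations used permutation of libraries within groups, exact where a group set was small and 100000 draws otherwise. The alternatives were DESeq2 1.42.0, voom of limma 3.58.1, RLE factors, no filter on low counts, genes with a mean of at least 1 CPM, blocking on replicate number, fitting the compared groups alone, covariates and leaving out each library. Leaving out libraries high in Ppp1r1b (above 600 CPM) or 18S ribosomal RNA (above 10000 CPM), the whole relation to striatal markers and the set of 6 libraries for Gfap were chosen after seeing the data. The 9 genes and the gene lists were chosen with earlier results of these data known. All 9 genes are named, with Gfap, up to 3 genes of smallest p per list and tissue, and the genes most alike, except a few that are not reported here; Nfasc, Enpp2, Sox10, Pdgfra, Zfp536, St18, Tnr, Bcas1, Camk2a, Gad2, Pmp22, Pmp2, Gad1, Slc17a7 and Aldoc were named after their values were seen. Exon lengths came from GENCODE M21 and upstream sequences from the RefSeq promoter table, both of build GRCm38, for 8 of the 9 genes. The labels name each library as a separate sample; p-values measure the spread between these samples. No pair of libraries was a duplicate.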

Additional observations from a re-analysis of the deposited data

Results flagged for a closer look

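In 10 of the 72 sets of libraries (9 genes in 8 groups), 1 library stood apart from the rest of its group by the gap to its neighbour, measured against the whole range of the group; chance gives about 1 in 20 sets, and the 9 genes of a library are not independent. BLA Control trained 2 was the high library for Mbp (1575 CPM, next 1019), Mobp (603, next 334), Cnp (261, next 164), Mal (189, next 105), Cldn11 (110.1, next 64.5) and Mog (39.6, next 22.3). BLA APP/Tau naive 2 was the high library for Mbp (2207 CPM, next 1415), Mobp (839, next 466) and Cldn11 (149, next 88.5). Both libraries are among the 3 with Ppp1r1b above 600 CPM, at 919 and 1162 CPM; the part of this in their myelin gene levels was not tested. BLA Control naive 2 was the low library for Opalin (5.31 CPM, next 7.94).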

How the results depend on the processing

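The counts given here are of the 9 genes called at an adjusted p below 0.05. For the averaged genotype difference in the hippocampus (5 called) the count was 9 with DESeq2, 8 with a filter at a mean of 1 CPM, 9 with the replicate block and 0 with other oligodendrocyte genes as a covariate, and 0 to 8 when single libraries were left out. In trained mice of the hippocampus (0 called) it was 2 with the replicate block and 0 to 3 without single libraries, the 3 being without hippocampal APP/Tau naive 5. For the averaged difference in the BLA (2 called) it was 7 with DESeq2, 0 with limma-voom, 0 with the replicate block, 0 with other oligodendrocyte genes and 0 with striatal markers as covariates, 8 without the libraries with Ppp1r1b above 600 CPM, and 0 to 9 without single libraries. The share of all genes called is not given here for the 1 CPM filter, the replicate block or the trained fits without single libraries. Those counts therefore cannot be read as shifts of the 9 genes alone. The cause of the shifts was not tested, apart from the covariates, which by construction take out what the genes share with them. Over all comparisons and relations, 45 counts shifted and 550 held, but most of these comparisons and relations stood at 0 or at their maximum in the main fit. For the averaged difference in the BLA, 16 of 19 fits without a single library called 0 of the 9 genes. By best match, replicate numbers in the titles did not pair most libraries: 5 of 19 in the BLA and 3 of 19 in the hippocampus correlated best with their own number. Same-numbered libraries of different groups correlated over 0.1 in their deviations in 9 of 27 BLA and 12 of 27 hippocampal pairs. Pairs with other numbers did so in 38 of 108 and 27 of 122 cases. Library numbers shared between tissues did so in 17 of 19 pairs (median r 0.249), against 55 of 361 pairs with other numbers. Of the BLA libraries, 13 of 19 correlated best with the hippocampal library of their own library number. A replicate block on library numbers left the 9 regional calls at 9.

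Among the genotype differences of single genes, signs turned with other oligodendrocyte genes as a covariate, in 15 values, none of them called, and under no other setting run. Training and interaction values, none of them called, changed sign under several settings. The genotype differences that turned with the covariate in the BLA average were Mobp -0.069, Mal -0.012, Cldn11 -0.018 and Ermn -0.14. In naive mice of the BLA they were Mog -0.052, Mobp -0.030, Mal -0.029, Cldn11 -0.041 and Ermn -0.15, and in trained mice Mobp -0.11 and Ermn -0.13. In the hippocampus they were Ermn -0.0043 in the average, Ermn -0.022 in naive mice, and Mobp -0.011 and Mal -0.0037 in trained mice. Only the groups compared were not fitted separately for the averaged and interaction comparisons. What depth limits was not tested; the lowest count of the 9 genes in a library was 271.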
